A study of Mus musculus with 6 samples.

Results

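The histone deacetylase genes of C2C12 cells were described here: Hdac1, Hdac2, Hdac3 and Hdac8 of class I, Hdac4, Hdac5, Hdac7 and Hdac9 of class IIa, Hdac6 of class IIb and Hdac11 of class IV. These 10 members were picked by symbol from the 43074 symbols of the count table, with earlier results of these data known. All 10 were in the table, and all 10 were among the 17433 genes that passed the filter on low counts. C2C12 is an established mouse myoblast line of wild-type genotype per the labels, which fuses into multinucleated myotubes when the serum is changed. Total RNA was sequenced in 3 groups of 2 libraries. One group was of untreated cells at day 0, in growth medium with fetal bovine serum, and the others had spent 4 days in a horse serum differentiation medium to which DMSO or 1 mM 4-phenylbutyric acid (4-PBA) was added. The day 0 cells received no DMSO, so that time, medium and vehicle cannot be told apart in a comparison with day 0. A single cell line was used, and the labels do not say whether the 2 libraries of a group came from separate cultures. The p-values rest on the spread between these libraries, mostly as shared over the tested genes, and this spread may be technical.

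Histone deacetylases remove acetyl groups from lysines of histones and other proteins, and at promoters this generally goes with repression. The class I enzymes Hdac1 and Hdac2 are the catalytic subunits of the Sin3, NuRD and CoREST corepressor complexes, and Hdac3 that of the NCoR complex. Class IIa enzymes have little deacetylase activity of their own; they bind Mef2 transcription factors, and in muscle their phosphorylation by calcium-dependent and related kinases lets 14-3-3 proteins hold them in the cytoplasm. Hdac6 is a mainly cytoplasmic enzyme that deacetylates tubulin, and Hdac11 is the sole class IV member. 4-PBA is a short aromatic fatty acid known as an inhibitor of class I and class II enzymes and as a chemical chaperone. The measurements below are of transcript levels and carry no information on enzyme activity, protein level or localisation.

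Total counts ranged from 47908926 to 74697397 per library, and the 10 members together took 0.0633% to 0.0655% of them. Levels are given as CPM, counts scaled to a common library size after TMM normalisation. A member had between 110 and 11526 counts in a library, and the coefficient of variation between the 2 libraries of a group lay between 0.11% and 7.76% over the members and groups. The myoblast label was checked against markers: Myod1, a myoblast transcription factor, stood between 95.8 and 116 CPM in all libraries, and Des, the muscle intermediate filament, between 877 and 2226 CPM. Of the markers of other cell types, Ptprc, Adipoq, Plin1 and Fabp4 had at most 12 counts in any library, and the macrophage marker Cd68 lay between 1.34 and 5.47 CPM. The fibroblast markers were not absent: Pdgfra had 682 to 960 counts, a level above that of Cd68 in every library, and Dpt had 28 to 116 counts.

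How these genes change as myoblasts differentiate was asked by setting the DMSO group against day 0. The quasi-likelihood test of edgeR called 8 of the 10 members at an adjusted p-value under 0.05, against a background of 66.3% of all tested genes. Hdac9, Hdac11, Hdac4 and Hdac8 rose and Hdac6, Hdac1, Hdac3 and Hdac2 fell, so 4 members went each way (background 33.8% higher and 32.6% lower). The libraries of both groups did not overlap for the same 8, as for 81.9% of tested genes, and 68.3% had an unadjusted p under 0.05. Hdac9 and Hdac11 rose more than 4-fold, a size reached by 8.73% of tested genes; the other 6 called members changed by less than 2-fold. The share of members called was thus near that of all genes, and the median log2 fold change was 0.00064 over the members and 0.023 over all tested genes. As these are bulk samples, a change in the share of cells of a type and a change in RNA per cell cannot be told apart.

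**Figure D1:**
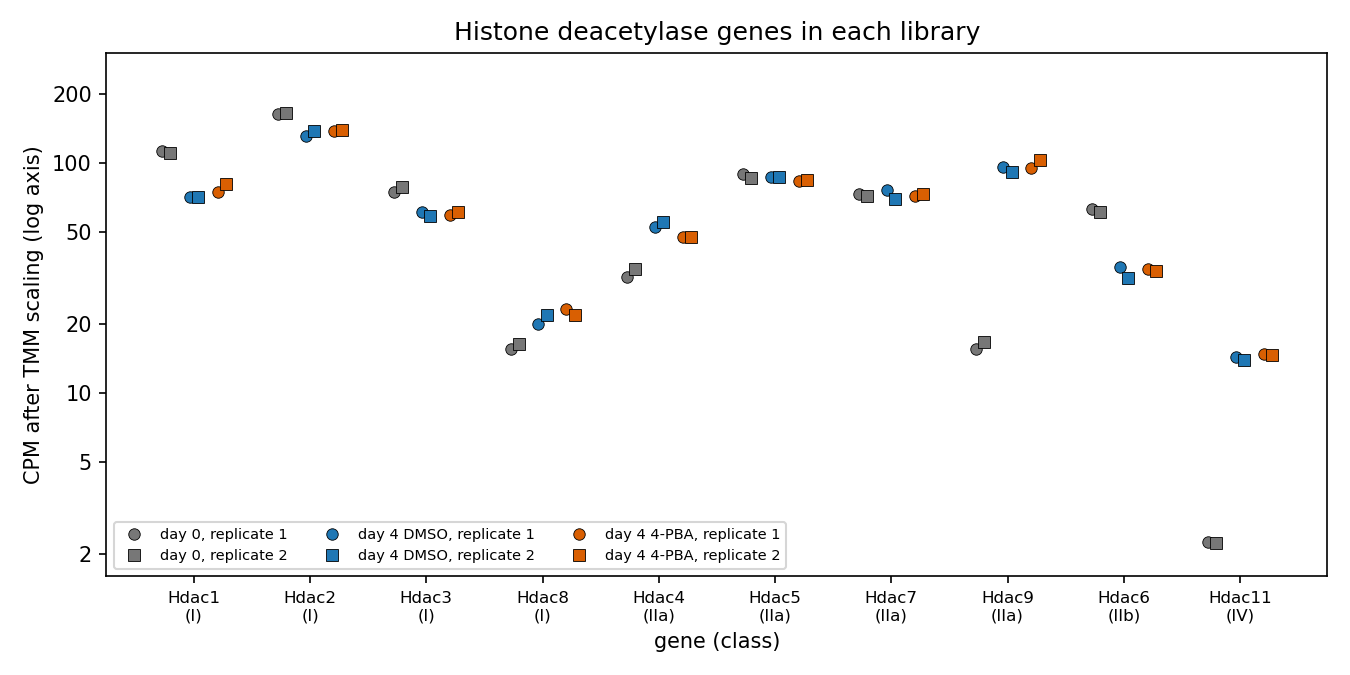
CPM after TMM scaling (log axis) of the 10 histone deacetylase genes, with circles for replicate 1 and squares for replicate 2 of day 0 (grey), day 4 with DMSO (blue) and day 4 with 4-PBA (orange). Hdac9 and Hdac11 stand far above their day 0 level in all 4 day 4 libraries, and the DMSO and 4-PBA points of most genes lie close together.

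The class I genes Hdac1, Hdac2 and Hdac3 fell with differentiation. Day 0 levels of Hdac1 were 112 and 110 CPM, and DMSO levels 71.3 and 70.8 CPM. Both DMSO libraries lay below both day 0 libraries, and the log2 fold change was -0.65 (SE 0.0407, adjusted p 3.34e-16), a fall to 0.639 of the day 0 level. Hdac2, its close relative, was less reduced, from 164 and 164 CPM to 131 and 138 CPM (log2 fold change -0.28, SE 0.0344, adjusted p 5.25e-09). Hdac3 stood at 74.6 and 78.4 CPM at day 0 and at 60.9 and 58.8 CPM with DMSO (-0.36, SE 0.0440, adjusted p 7.69e-09). For all 3 genes the groups did not overlap. Hdac8, the class I enzyme that deacetylates the cohesin subunit Smc3, went the other way, from 15.6 and 16.3 CPM to 19.9 and 21.8 CPM (0.38, SE 0.0735, adjusted p 2.13e-05). RefSeq lists a pseudogene copy of Hdac1, for which no value is used here, and how the counting treated reads shared with it is not given in the sources used here.

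The class IIa genes differed among themselves. Hdac9 stood at 15.5 and 16.7 CPM at day 0 and at 95.5 and 91.1 CPM with DMSO, a 5.77-fold rise (log2 fold change 2.53, SE 0.0521, adjusted p 5.29e-30). That change was higher than those of 95.6% of tested genes. The gene is known to give both a full-length enzyme and the shorter protein MITR, which lacks the deacetylase domain; counts per gene do not separate them. Hdac4, which represses Mef2 targets in muscle, rose from 31.9 and 34.5 CPM to 52.7 and 55.1 CPM (0.70, SE 0.0514, adjusted p 2.57e-14). Exons of Hdac4 share 3536 bases with the noncoding gene Gm26720, which GENCODE M21 places on the other strand. Because the strand setting of the counting is not given, reads of the pair may be mixed.

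No change was called for the other class IIa genes. Hdac5 stood at 89.5 and 85.7 CPM at day 0 and at 86.5 and 86.7 CPM with DMSO (log2 fold change -0.015, 95% interval -0.095 to 0.065, adjusted p 0.761). Hdac7 stood at 73.0 and 71.8 CPM at day 0 and at 76.4 and 70.0 CPM with DMSO (0.016, 95% interval -0.074 to 0.11, adjusted p 0.768); its sign turned to -0.012 with library size as the only scaling and to -0.047 without DMSO replicate 1. The day 0 and DMSO libraries overlapped for both, and in percent the 95% intervals ran from -6.35% to 4.63% for Hdac5 and from -4.99% to 7.60% for Hdac7. Hdac7 shares 29 exon bases with Slc48a1, a gene of 3405 to 6451 counts on the opposite strand.

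Hdac6, the tubulin deacetylase, had the largest fall of the members. It stood at 63.0 and 61.0 CPM at day 0 and at 35.3 and 31.7 CPM with DMSO, 1.85-fold lower (log2 fold change -0.89, SE 0.0530, adjusted p 7.33e-17), with no overlap between the groups. Atat1, the acetyltransferase that acts on the same tubulin lysine, rose (0.79, SE 0.0585, adjusted p 3.36e-14). Exons of Atat1 share 644 bases with Gm16279, a gene of 22 to 47 counts on the opposite strand. Tubulin acetylation was not measured, and a link between these values was not tested. The remaining class IIb gene, Hdac10, was not among the members and was added after its values were seen; it stood at 33.5 CPM in both day 0 libraries and at 22.8 and 20.6 CPM with DMSO (-0.63, SE 0.0644, adjusted p 1.08e-10).

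Hdac11, which removes long fatty acyl groups from lysines more readily than acetyl groups, had the largest rise. It stood at 2.26 and 2.24 CPM at day 0 and at 14.3 and 13.9 CPM with DMSO, a 6.26-fold rise (log2 fold change 2.65, SE 0.110, adjusted p 2.13e-21). All 4 day 4 libraries of the series lay above both day 0 libraries. The day 0 values rested on 110 and 157 counts, and Hdac11 had the largest SE of the members. Both genes that overlap its exons on the opposite strand had at most 8 counts in any library.

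The start-site regions of the 2 genes that rose most and of Hdac5 are shown for comparison, from the RefSeq promoter table of build GRCm38.p6. Of the 8 members with a window, only Hdac5 had a match to the Mef2 motif, while Hdac1 and Hdac3 had no window. Each window runs 5′ to 3′ on the strand of the gene, from 250 bases before to 50 after an annotated start, and the table held 12 windows for 8 of the 10 members. Capitals mark the E-box CAGCTG, a form that myogenic factors bind, or the Mef2 motif. Both starts of Hdac9 are given, at chr12:34917046-34917345 and chr12:34528840-34529139 on the minus strand; Hdac11 is at chr6:91156565-91156864 on the plus strand and Hdac5 at chr11:102230123-102230422 on the minus strand.
Hdac9, first start: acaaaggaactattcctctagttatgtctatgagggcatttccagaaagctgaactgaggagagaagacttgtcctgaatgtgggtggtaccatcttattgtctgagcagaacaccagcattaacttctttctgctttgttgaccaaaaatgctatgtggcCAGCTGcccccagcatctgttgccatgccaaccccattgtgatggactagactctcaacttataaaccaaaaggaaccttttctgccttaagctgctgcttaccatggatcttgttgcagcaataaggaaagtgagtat
Hdac9, second start: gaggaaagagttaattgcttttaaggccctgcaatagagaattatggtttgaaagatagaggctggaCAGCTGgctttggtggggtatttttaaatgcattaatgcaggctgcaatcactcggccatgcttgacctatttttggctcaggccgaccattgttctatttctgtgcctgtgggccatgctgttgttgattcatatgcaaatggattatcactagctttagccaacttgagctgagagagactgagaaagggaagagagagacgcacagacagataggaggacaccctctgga
Hdac11: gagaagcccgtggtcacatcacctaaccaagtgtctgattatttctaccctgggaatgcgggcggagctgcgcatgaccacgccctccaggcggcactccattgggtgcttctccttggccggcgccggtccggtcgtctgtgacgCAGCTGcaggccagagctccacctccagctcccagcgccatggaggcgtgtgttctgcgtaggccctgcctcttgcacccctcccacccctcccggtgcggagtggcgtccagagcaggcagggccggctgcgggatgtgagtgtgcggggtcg
Hdac5: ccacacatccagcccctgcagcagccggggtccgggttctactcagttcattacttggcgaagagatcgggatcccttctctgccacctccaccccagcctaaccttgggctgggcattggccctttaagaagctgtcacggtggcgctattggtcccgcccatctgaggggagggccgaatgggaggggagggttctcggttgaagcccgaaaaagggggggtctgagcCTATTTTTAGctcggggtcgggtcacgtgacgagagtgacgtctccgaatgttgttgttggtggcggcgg

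The windows of Hdac9 and Hdac11 each held CAGCTG once. It began 89 and 183 bases before the 2 Hdac9 starts and 104 bases before that of Hdac11, and 16.3% of the 32841 windows of all genes held it on either strand. It was also in 1 of the 4 Hdac7 windows, with 2 matches, and in none of the windows of Hdac2, Hdac4, Hdac5, Hdac6 and Hdac8. CAGCTG is one form of the E-box CANNTG, which 72.3% of all windows and 8 of the 12 member windows held. The Mef2 motif in the Hdac5 window, 20 bases before the start, was in 3.19% of all windows. In base composition the Hdac9 windows had the fewest CpG dinucleotides of the 12, 0 and 3, at a GC content of 44.0% and 45.3%, and 31.4% of all windows had at most 3. The Hdac8 window (6 CpG, 49.7% GC) and a pair of Hdac7 windows (5 and 6 CpG) came next, while the window of Hdac11 had 22 CpG and 66.7% GC and that of Hdac5 18 CpG and 60.7% GC. The median over all windows was 7 CpG and 52.7% GC. A match is a description of these letters and does not show that a factor binds there.

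Cells that differentiated in 4-PBA showed the same calls against day 0. edgeR called 8 of the 10 members, 4 higher and 4 lower, against a background of 65.6% of tested genes (33.2% higher, 32.4% lower). Libraries did not overlap for 9 members, the same 8 and Hdac5, as for 81.8% of tested genes, and Hdac9 and Hdac11 again rose over 4-fold, as 8.63% of genes changed. The comparison shares its day 0 libraries with that of DMSO, so the values are given side by side and their likeness is no separate result. The log2 fold change with 4-PBA and with DMSO was 2.62 and 2.53 for Hdac9, 2.70 and 2.65 for Hdac11, and 0.52 and 0.70 for Hdac4. It was 0.49 and 0.38 for Hdac8, -0.86 and -0.89 for Hdac6, and -0.52 and -0.65 for Hdac1. Hdac2 stood at -0.25 and -0.28, and Hdac3 at -0.35 and -0.36. Hdac5 (-0.066, adjusted p 0.145) and Hdac7 (-0.0028, adjusted p 0.962) were not called with 4-PBA either.

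Whether the inhibitor changed the transcripts of its known target family was asked by setting 4-PBA directly against DMSO. A single member was called by edgeR, Hdac4, which fell with 4-PBA, where 4.9% of tested genes were called, 2.78% lower and 2.13% higher. Hdac1 and Hdac4 had an unadjusted p under 0.05, as did 16.7% of tested genes. No member reached a called 2-fold change, a size that 0.0688% of tested genes reached, and every estimate lay within 0.18 of 0 on the log2 scale. The median over the members was 0.030 and that over all tested genes 0.0021. The groups did not overlap for 4 members, Hdac1, Hdac4, Hdac5 and Hdac11, against 45.5% of tested genes.

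**Figure D2:**
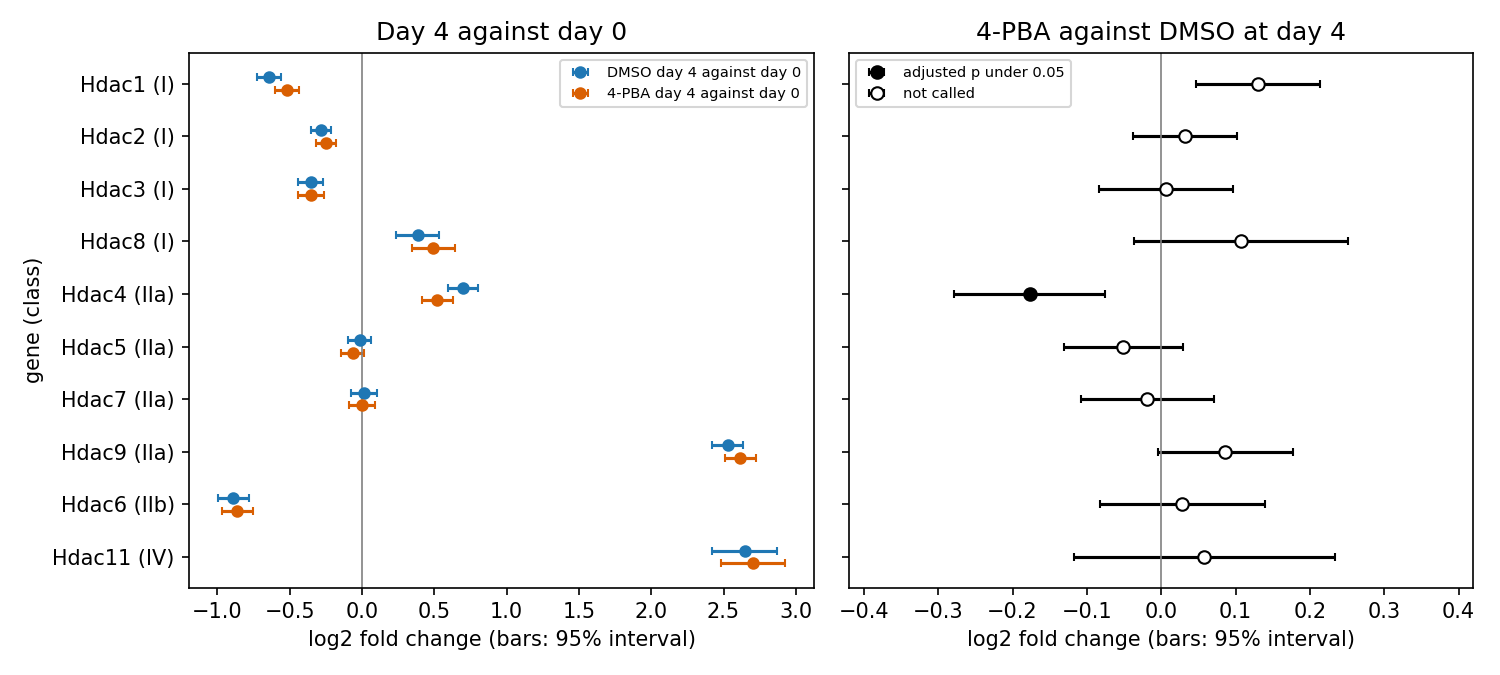
Log2 fold changes with 95% intervals (bars) of each member. The left panel shows DMSO (blue) and 4-PBA (orange) at day 4 against day 0, and the right panel, on a finer scale, 4-PBA against DMSO, where the filled point is Hdac4 (-0.18), called at an adjusted p-value under 0.05, and open points were not called.

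Hdac4 stood at 52.7 and 55.1 CPM with DMSO and at 47.7 and 47.7 CPM with 4-PBA. Both 4-PBA libraries lay below both DMSO libraries and above the day 0 libraries (31.9 and 34.5 CPM). The log2 fold change was -0.18 (SE 0.0499, 95% interval -0.28 to -0.076, adjusted p 0.0301), a fall of 11.5%. The size held between -0.21 and -0.14 over 15 alternatives, but the call did not: the adjusted p was 0.0672 with the Wald test of DESeq2, 0.141 without DMSO replicate 2, and 0.207 and 0.215 without 4-PBA replicates 1 and 2. Over all alternatives it lay between 0.00718 and 0.215. Marker sums differed between these groups too: the 10 myoblast and myotube markers summed to 9382 and 9698 CPM under DMSO and 8705 and 8840 CPM under 4-PBA, with day 0 at 1317 and 1321 CPM. The list did not move as one: Ttn, the giant sarcomere protein titin, went from 2614 and 2691 CPM to 2176 and 2207 CPM, while Myh3 overlapped between the groups (1950 and 2085 CPM against 2014 and 2072 CPM). The part of these markers in the difference of Hdac4 was not tested.

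Hdac1 stood at 71.3 and 70.8 CPM with DMSO and at 74.9 and 80.6 CPM with 4-PBA, with no overlap, but missed the threshold (log2 fold change 0.13, SE 0.0411, 95% interval 0.047 to 0.21, adjusted p 0.0583). It was called with library size as the only scaling (adjusted p 0.0380), without the filter on low counts (0.0441) and without 4-PBA replicate 1 (0.0499), in a range up to 0.611. Its size rested on 4-PBA replicate 2, without which it was 0.076. The 12 growth markers summed to 911 and 794 CPM under DMSO, against 974 and 989 CPM under 4-PBA, and their part in the Hdac1 values was not tested.

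For the other 8 members, what 4-PBA would do in other cultures is not bounded by these values. The 95% intervals reflect the spread between these libraries, mostly as shared over the tested genes, and this spread may be technical. The narrowest was that of Hdac2, at 131 and 138 CPM under DMSO and 137 and 138 CPM under 4-PBA (log2 fold change 0.032, 95% interval -0.038 to 0.10, adjusted p 0.727). Hdac3 stood at 60.9 and 58.8 CPM under DMSO and 59.4 and 60.8 CPM under 4-PBA (0.0067, 95% interval -0.083 to 0.097). Hdac9 stood at 95.5 and 91.1 CPM with DMSO and at 95.3 and 103 CPM with 4-PBA (0.086, 95% interval -0.0044 to 0.18, adjusted p 0.334). In percent the bounds were -2.59% to 7.36% for Hdac2, -5.62% to 6.95% for Hdac3 and -0.306% to 13.0% for Hdac9, which does not show that the levels were equal.

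Hdac8 had the widest upper bound, a rise of 19.1%, at 19.9 and 21.8 CPM under DMSO and 23.1 and 21.8 CPM under 4-PBA (log2 fold change 0.11, adjusted p 0.493). Hdac11 stood at 14.3 and 13.9 CPM with DMSO and at 14.7 and 14.6 CPM with 4-PBA (0.058, 95% interval -0.12 to 0.23, adjusted p 0.823). Hdac6 stood at 35.3 and 31.7 CPM under DMSO and 34.5 and 33.7 CPM under 4-PBA (0.028, 95% interval -0.083 to 0.14). Hdac5, at 83.0 and 84.2 CPM with 4-PBA, lay below both DMSO libraries (86.5 and 86.7 CPM), by -0.051 (95% interval -0.13 to 0.029, adjusted p 0.577). Hdac7 stood at 71.5 and 72.9 CPM with 4-PBA, within its DMSO range (-0.019, 95% interval -0.11 to 0.071). The signs of the estimates of Hdac2, Hdac3, Hdac6 and Hdac7 depended on single libraries.

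Levels of different members were compared per length, as CPM per kilobase of annotated exon. At day 0 the order was Hdac2 (36.6 ± 0.0956, SD, n = 2), Hdac1 (32.3 ± 0.338), Hdac3 (18.9 ± 0.655), Hdac7 (10.7 ± 0.133), Hdac6 (10.7 ± 0.242), Hdac5 (9.97 ± 0.309), Hdac8 (3.29 ± 0.112), Hdac4 (2.10 ± 0.116), Hdac9 (1.10 ± 0.0586) and Hdac11 (0.585 ± 0.00495). Of these neighbours Hdac7 and Hdac6 overlapped. With DMSO at day 4, Hdac9 (6.36 ± 0.209) had passed Hdac8, Hdac4 and Hdac6 to the sixth place, and Hdac11 (3.66 ± 0.0807) had passed Hdac4 (3.41 ± 0.106). Hdac2, Hdac1, Hdac3 and Hdac7 held the first 4 places in all 3 groups. Part of the order rested on the length used: with the longest transcript of each gene as its length, Hdac1 (54.6 CPM per kilobase) lay above Hdac2 (50.4) at day 0 and below it, at 34.9 against 41.4, with DMSO, and Hdac5 took the place of Hdac7 just below Hdac3 in all 3 groups. With that length Hdac11 did not pass Hdac4 and stayed last with DMSO, at 5.31 against 6.65 CPM per kilobase.

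**Figure D3:**
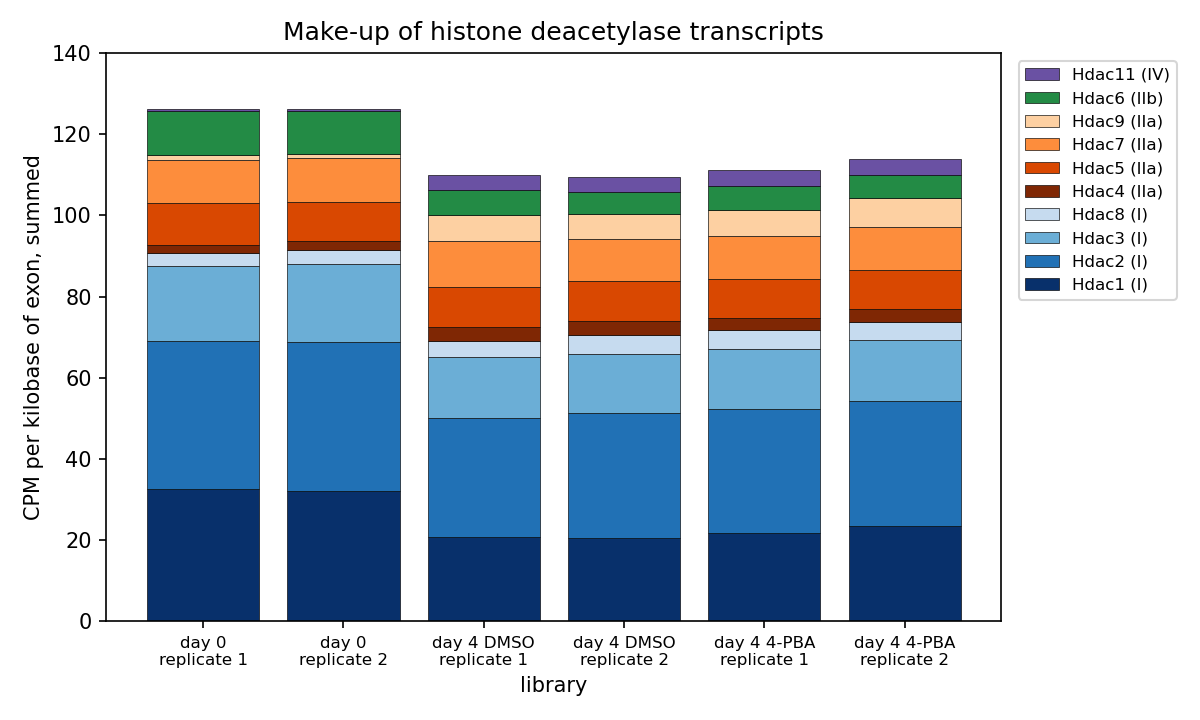
CPM per kilobase of annotated exon of the 10 members, stacked for each of the 6 libraries, with class I in blue, class IIa in brown to orange, Hdac6 in green and Hdac11 in purple. The stacks are lower at day 4, the blue part shrinks, and the pale orange part of Hdac9 is thin at day 0 and broad in the 4 day 4 libraries.

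Summed over the members, this level was 126.2 CPM per kilobase in both day 0 libraries, while the DMSO libraries had 109.9 and 109.4 and the 4-PBA libraries 111 and 114. Of this sum the class I genes made up 72.2% ± 0.410 (SD, n = 2) in untreated cells, against 63.6% ± 1.05 in the DMSO group and 64.7% ± 0.176 in the 4-PBA group. For class IIa the share was 18.9% ± 0.214 at day 0 against 27.8% ± 0.595 (DMSO) and 26.7% ± 0.0781 (4-PBA). Both day 4 groups thus held a smaller class I share and a larger class IIa share than day 0 in every library. Within class IIa, the Hdac9 share was 4.60% ± 0.297 in untreated cells, 20.9% ± 0.164 in the DMSO group and 22.5% ± 0.752 in the 4-PBA group. The ratio of Hdac1 to Hdac2 was 0.890 and 0.873 in the untreated libraries, 0.705 and 0.667 in those of DMSO and 0.710 and 0.757 in those of 4-PBA. These shares are descriptions with no test, since no score over the members was tested.

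Genes that work with the members were taken from lists chosen with earlier results of these data known. Of 39 subunits of the corepressor complexes, 26 were called between DMSO and day 0, 13 higher and 13 lower, which is 66.7% against the background of 66.3%, with a median log2 fold change of -0.067. Among the largest of these changes at 5 CPM or more were those of Rbbp7, a histone-binding subunit of the Sin3 and NuRD complexes (-0.67, SE 0.0324), and of Phf21a, a CoREST subunit (0.64, SE 0.0492), with adjusted p-values up to 9.15e-14. Rbbp7 shares 174 exon bases with Txlng, Mef2a 302 with Lysmd4, Sirt2 42 with Nfkbib and Mcm7 321 with Ap4m1, all on the opposite strand, which leaves these values uncertain.

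Between 4-PBA and DMSO, 5 of the 39 were called, 12.8% against the background of 4.9%, with 1 higher and 4 lower and a median of 0.030. The smallest p-values belonged to Tbl1x, a subunit of the NCoR complex (149 and 149 CPM with DMSO, 137 and 133 CPM with 4-PBA; a log2 fold change of -0.14, SE 0.0339, adjusted p 0.00786), its paralog Tbl1xr1 (-0.21, SE 0.0489, adjusted p 0.00881), and the NuRD helicase Chd3 (-0.12, SE 0.0295, adjusted p 0.00962). Ncor1 (-0.11, adjusted p 0.0305, up to 0.393) was also lower and Rcor1 (0.17, adjusted p 0.0138, up to 0.161) higher, the second value being the highest over the alternatives; both were named after their values were seen. Single libraries decided these calls: the highest adjusted p over the alternatives was 0.190 for Tbl1x, 0.194 for Tbl1xr1 and 0.170 for Chd3, each without 4-PBA replicate 2. In the list 1 gene was called when 4-PBA replicate 1 was left out and 0 when replicate 2 was.

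Most genes of class IIa regulators were called between DMSO and day 0, in both directions. Of 22 genes for the kinases, 14-3-3 proteins and Mef2 partners of class IIa enzymes, 21 were called (95.5% against 66.3%). Of these 11 were higher and 10 lower, and the median of the list was -0.018. As the list was chosen with earlier results of these data known, its share is a description only. Some of the called changes were small, such as those of Prkd3 (0.092) and Ywhae (-0.13). Split by role after the values were seen, all 4 Mef2 genes rose, all 6 14-3-3 genes fell, by 0.13 to 0.66 on the log2 scale, and of 12 kinase genes 7 rose and 4 fell. Over all tested genes 33.8% were called higher and 32.6% lower. Mef2b, named after its values were seen, had the smallest rise of the Mef2 genes (0.31, adjusted p 0.0302 by edgeR). Its exons share 62 bases with Borcs8 on the same strand, which leaves its counts uncertain. Camk2a, a kinase of class IIa enzymes, stood at 2.06 and 1.57 CPM at day 0 and at 54.9 and 53.0 CPM with DMSO (a log2 fold change of 4.93, SE 0.0864, adjusted p 1.93e-32). Mef2c rose from 7.47 and 7.52 CPM to 68.6 and 70.7 CPM (3.21, SE 0.0601), and Mef2a from 125 and 125 CPM to 328 and 338 CPM (1.41, SE 0.0319).

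Between 4-PBA and DMSO only Camk2a of these 22 genes was called (4.55% against 4.9%). It stood at 45.2 and 44.4 CPM with 4-PBA (a log2 fold change of -0.27, SE 0.0560, adjusted p 0.00240), below both DMSO libraries. Without 4-PBA replicate 2 its adjusted p was 0.0709, the highest over the alternatives, which went down to 5.86e-05.

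The enzymes that act beside or against the members were also counted. Of 7 sirtuin genes, the NAD-dependent class III deacetylases, 3 were called between DMSO and day 0, 42.9% against the background of 66.3%: Sirt2 (log2 fold change 0.48, SE 0.0485) and Sirt4 (0.39, SE 0.0954) rose and Sirt1 fell (-0.18, SE 0.0550), with adjusted p-values up to 0.00428. Of 11 lysine acetyltransferase genes, 10 were called (90.9% against 66.3%), 5 higher and 5 lower, led by Hat1, which acetylates new histones (-1.64, SE 0.0515), Kat2a (-1.01, SE 0.0470) and Atat1. Between 4-PBA and DMSO edgeR called 0 of the 7 sirtuins and 0 of the 11 acetyltransferases, and the DESeq2 Wald test and limma-voom also called 0 of each, where 4.9% of all tested genes were called by edgeR. At an unadjusted p under 0.05 edgeR had 0 sirtuins and 2 acetyltransferases, against 16.7% of tested genes. In each list 1 gene was called once a DMSO library was left out, replicate 2 for the sirtuins and replicate 1 for the acetyltransferases.

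Genes widely known to rise when deacetylases are inhibited gave a mixed picture with 4-PBA. Of the 5 listed, 2 rose, 1 fell and 2 were not called against DMSO, where 2.13% of tested genes were called higher and 2.78% lower. H1f0, the linker histone H1.0 and a common marker of deacetylase inhibition, stood at 278 and 281 CPM with DMSO and at 345 and 319 CPM with 4-PBA, while day 0 stood at 331 and 345 CPM. The groups at day 4 did not overlap, and the log2 fold change was 0.25 (SE 0.0335, adjusted p 1.19e-05), with a call under all 15 alternatives. Between DMSO and day 0 H1f0 fell by 0.27 (SE 0.0336, adjusted p 1.15e-08), and its 4-PBA and day 0 libraries overlapped (-0.026, adjusted p 0.505). Exons of H1f0 overlap those of Gm49544, a gene of 37 to 54 counts on the opposite strand, and those of Cdkn1a, described next, 273 bases of an unnamed one for which no value is used here.

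Fst, which encodes the myostatin antagonist follistatin, stood at 58.1 and 55.7 CPM with DMSO and at 67.9 and 70.4 CPM with 4-PBA (a log2 fold change of 0.28, SE 0.0529, adjusted p 8.50e-04). Both day 4 groups lay far above day 0 (8.44 and 6.91 CPM). Without 4-PBA replicate 2 the adjusted p was 0.0530 at a log2 fold change of 0.26, the highest of a range that went down to 1.78e-06. Cdkn1a, the cell cycle inhibitor p21, was lower with 4-PBA, at 672 and 693 CPM against 728 and 797 CPM (-0.16, SE 0.0359, adjusted p 0.00962). Its value was -0.092 without DMSO replicate 2, and its adjusted p 0.163 without 4-PBA replicate 1. Gsn, an actin-severing protein, and Clu, a secreted chaperone, were not called (log2 fold change -0.0029 and -0.22, adjusted p 0.979 and 0.848), Clu at 1.03 and 0.998 CPM with DMSO.

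**Figure D4:**
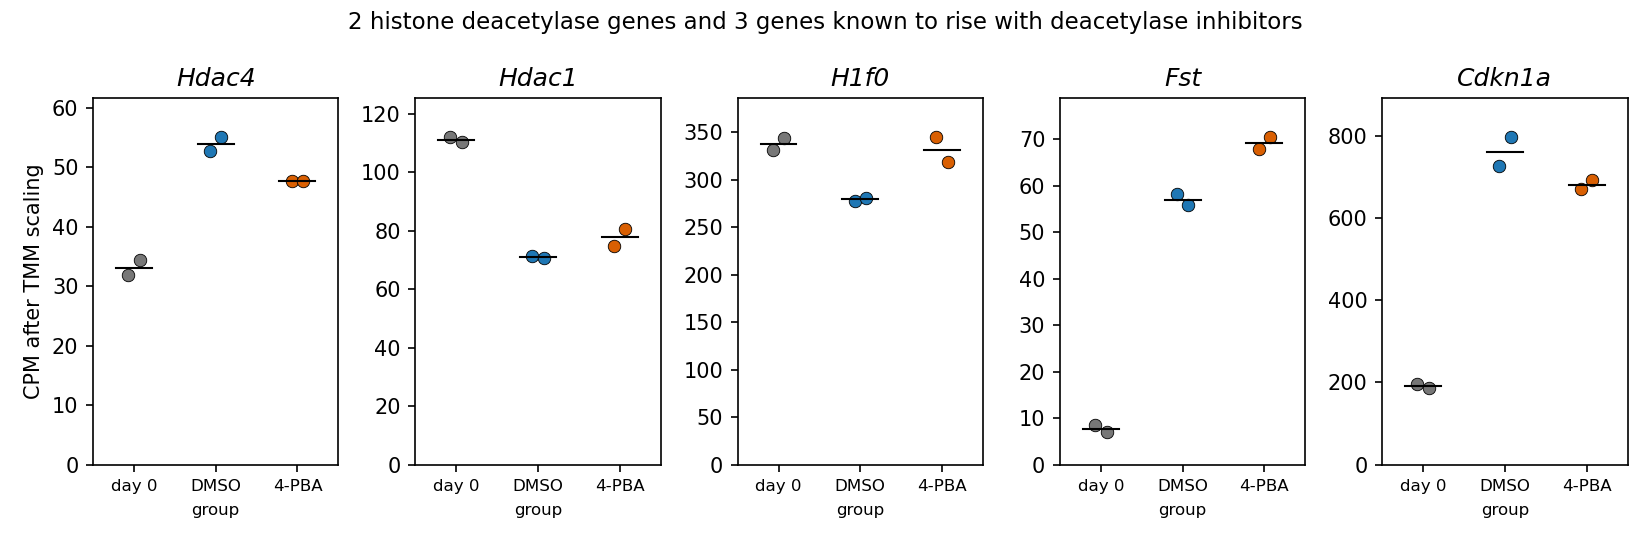
CPM after TMM scaling in each library (points) and group mean (lines) for Hdac4, Hdac1 and 3 genes known to rise with deacetylase inhibitors, each panel on its own linear axis from 0. Hdac4 and Cdkn1a are lower and H1f0 and Fst higher with 4-PBA than with DMSO, without overlap of the day 4 groups; the Hdac1 groups do not overlap either but were not called.

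The growth markers, which follow the share of cycling cells, all fell with differentiation (12 of 12 called, against 32.6% of tested genes called lower), among them Mki67 from 411 and 412 CPM to 150 and 129 CPM (log2 fold change -1.56, SE 0.0619). The largest falls were those of Mcm5 (-2.24, SE 0.0577), Mcm3 (-2.22, SE 0.0834) and Ccnb1 (-2.04, SE 0.0828). With 4-PBA 6 of the 12 were called, all higher than with DMSO (background 2.13% higher), led by the replication genes Mcm7 (0.28, SE 0.0398), Pcna (0.18, SE 0.0361) and Mcm2 (0.21, SE 0.0457). This count depended on the DMSO and 4-PBA libraries: it was 12 without DMSO replicate 1 and 3 without 4-PBA replicate 2. It was 11 without the filter on low counts. The muscle markers Myog (5.19, SE 0.0460) and Myh3 (6.74, SE 0.0397) rose between day 0 and DMSO. Neither was called between 4-PBA and DMSO (0.0052 and 0.018, adjusted p 0.972 and 0.838). Among other muscle markers, both 4-PBA libraries lay below both DMSO libraries for Des, Mymk, Ckm, Ttn, Casq1 and Acta1. Over all tested genes, 45.5% had no overlap between these groups, in either direction. Casq1 went from 20.6 and 21.3 CPM with DMSO to 13.3 and 12.3 CPM with 4-PBA. Myod1 overlapped between these groups, and Myf5 was slightly higher with 4-PBA.

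Genes whose pattern over the 6 libraries was most like that of 3 members were found among 10671 other genes of at least 5 CPM, by the root mean square difference of centred log2 CPM. For Hdac11 they were Mgam (0.053) and Adamts4 (0.057), with log2 fold changes of 2.52 and 2.61 between DMSO and day 0. For Hdac6 they were Trim65 (0.020), Srpk1 (0.023) and Tiam2 (0.024), with -0.88, -0.88 and -0.87. For Hdac4 they were Rreb1 (0.029), Sfi1 (0.033) and Pitpnm2 (0.034), with log2 fold changes of -0.17, -0.15 and -0.11 between 4-PBA and DMSO. The points are 6 libraries of 3 groups, and the likeness is a description with no test. Exons of Sfi1 overlap Drg1 and those of Trim65 overlap Trim47 on the same strand, so their counts are uncertain where the counting could split reads.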

How the data were processed

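Gene counts of 6 C2C12 libraries (directional kit, per the labels) were used as deposited by the authors: raw counts per gene symbol, one column per library, matched by the column names that the labels give. The genome build was GRCm39 per the submitters' processing notes; aligner, counter, annotation and strand setting are not given in the sources used here. From the deposited counts, genes were kept by edgeR's filterByExpr (17433 of 43074), scaled by TMM and tested with the quasi-likelihood test of edgeR 4.0.16 (R 4.3.3) in 1 fit over all 3 groups, p-values being adjusted by Benjamini and Hochberg's method over the 17433 genes, with a threshold of 0.05. The SE is the absolute log2 fold change divided by the root of the F statistic, and 95% intervals use it with t quantiles. A gene's own spread had 3 residual degrees of freedom, against a median of 30.4 prior ones from all tested genes. The SE, intervals and p-values thus rest mostly on a spread shared over genes and less on that of the single gene. CPM values are edgeR's, without a prior count, while the log2 CPM used to find the nearest patterns had a prior count of 2. With 2 libraries against 2, the smallest p of an exact permutation test is 0.333, so none is given for single genes.

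Total counts were 47908926 to 74697397 per library, and the libraries of a group differed by more than counting noise (chi-square per degree of freedom 3.98 to 7.15 over all genes). All libraries carry 1 batch number. Replicate numbers were not used to pair libraries in the main test.

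The members and gene lists were chosen with earlier results of these data known. The genes named were, per list, those called with the 3 smallest p-values between 4-PBA and DMSO, the 3 largest called changes between DMSO and day 0 at 5 CPM or more, 4 markers, and for 3 members the 3 genes of nearest pattern; others are said to be outside this rule. Gsn and Clu complete their list. Some genes that this rule names are not reported here. Exon lengths and overlaps came from GENCODE M21 (36556 symbols matched, all 10 members), an annotation of another build, of which no coordinates are given. Promoter windows came from RefSeq GRCm38.p6, and figures were drawn with matplotlib 3.10.9. The Mef2 motif was searched on both strands, as was each E-box. Alternatives were other scalings and filters, DESeq2 1.42.0, limma-voom (limma 3.58.1), a replicate block, fits of 4 libraries, a threshold of 0.01, each library left out and the longest transcript as length. The scripts were tested on simulated data.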

Additional observations from a re-analysis of the deposited data

How the results depend on the processing

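Between day 0 and either day 4 group, 8 of the 10 members were called, 4 in each direction, under all 15 alternatives. Between 4-PBA and DMSO 1 member was called, but 2 with library size as the only scaling, 2 without the filter on low counts, 0 with the DESeq2 Wald test (2 at an unadjusted p under 0.05), 0 at a threshold of 0.01, and 0 to 1 with single libraries left out. Without 4-PBA replicate 1 the 1 member called was Hdac1 and not Hdac4. Over all tested genes that comparison gave 855 calls, 424 at a threshold of 0.01 and 295 to 1194 with single libraries left out (341 and 295 without 4-PBA replicates 1 and 2). Of the calls 43.4% were higher with 4-PBA, 46.1% with DESeq2's size factors and 51.5% with library size only.

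Estimates near 0 changed sign, and ranges here are over fits without 1 library each. Between DMSO and day 0, Hdac7 was -0.012 with library size only and ran from -0.047 to 0.078, and Hdac5 was 0.0027 with the stricter filter and ran from -0.044 to 0.012. Between 4-PBA and day 0, Hdac7 was 0.012 with the stricter filter, 0.0014 in a fit of 4 libraries and ran from -0.016 to 0.016. Between 4-PBA and DMSO, Hdac2 ran from -0.0041 to 0.070, Hdac3 from -0.017 to 0.030, Hdac6 from -0.050 to 0.11, Hdac7 from -0.081 to 0.045 and Gsn from -0.013 to 0.0072. Gsn was 2.9e-05 with DESeq2's size factors, 0.0065 with library size only and 4.2e-06 with the Wald test. The cause was not tested.

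With the longest transcript as length the class I share was 73.0%, 62.8% and 64.1%, the class IIa share 19.9%, 29.9% and 28.6%, and the Hdac9 share of class IIa 5.59%, 24.2% and 26.1% at day 0, with DMSO and with 4-PBA. With a replicate block 1 member and 768 genes were called between 4-PBA and DMSO. The numbers were not taken as a pairing, since the labels do not say that they mark a shared culture or day. The deviations of same-numbered libraries correlated at 0.046, -0.085 and -0.088, which cannot exclude a shared culture.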
